A study of Caenorhabditis elegans with 2 samples.

Results

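The regions described here are 607 peaks of FOS-1 binding on the autosomes of Caenorhabditis elegans that lie at one-directional promoters. They were chosen by position alone. A peak entered when its summit fell in the promoter window of at least 1 protein-coding gene, from 1000 bp upstream of its annotated 5′ end to 200 bp inside the gene, and all genes whose window held the summit were on the same strand. These peaks make up 39.5% of the 1536 autosomal peaks and 32.0% of the 1895 peaks in all. Another 355 autosomal peaks had summits in the windows of genes on both strands and are called divergent below, and 574 were neither.

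The assay was ChIP-seq, in which DNA that precipitates with a protein is sequenced, on whole first-stage (L1) larvae of mixed sex. The worms were of strain OP304, which carries the unc-119(ed3) mutation on chromosome III and the insertion wgIs304, labelled as targeting fos-1. The labels describe the target as eGFP-tagged FOS-1, name fos-1 in the antibody field and give no age. There was 1 group with 2 biological replicates, and both replicate lists were made with the same control file. No group of untagged or mock-treated worms was compared, so every value below describes this strain alone, and whole larvae do not show in which cells binding took place.

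FOS-1 is the Fos-family basic leucine zipper (bZIP) protein of the worm. Fos proteins bind DNA as dimers, classically with Jun partners, at the AP-1 site TGACTCA, and FOS-1 is known for roles in the anchor cell and the spermatheca. At a one-directional promoter, as chosen here, no window of a protein-coding gene on the other strand holds the summit. Upstream and downstream can then be defined on the strand of the gene. In worms the 5′ ends of many messenger RNAs are replaced by trans-splicing of a spliced leader, and an annotated 5′ end can therefore lie downstream of the site where transcription begins.

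The sequence under the summit is shown first for 3 of the strongest peaks, because they differ in what they contain. The windows run 5′ to 3′ on the strand of the gene, 50 bases to each side of the summit, and the capital marks the summit base. They lie at II:10563529-10563629 on the minus strand for cdc-48.1, II:9113021-9113121 on the plus strand for jun-1 and III:3867538-3867638 on the plus strand for rpl-3 (genome build WBcel235, the same as ce11).
cdc-48.1: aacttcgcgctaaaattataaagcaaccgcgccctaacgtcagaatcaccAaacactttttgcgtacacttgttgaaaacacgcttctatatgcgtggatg
jun-1: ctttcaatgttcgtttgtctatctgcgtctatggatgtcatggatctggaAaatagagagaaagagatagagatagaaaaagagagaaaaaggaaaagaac
rpl-3: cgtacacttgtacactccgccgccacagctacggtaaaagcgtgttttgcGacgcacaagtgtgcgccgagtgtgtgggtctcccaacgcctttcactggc

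None of these 3 windows holds the AP-1 site. The jun-1 window is rich in purines downstream of the summit, and its longest unbroken GA repeat is 7 bases. The cdc-48.1 and rpl-3 windows share a run of 11 bases, CGTACACTTGT, on the strand of the gene in both.

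An AP-1 site lay within 50 bp of the summit at 25 of the 607 peaks. The 8 strongest on chromosomes II to V are printed to show what surrounds the site, with capitals marking the match to TGACTCA or its reverse complement TGAGTCA.
nhr-50, V:16000642-16000670, minus strand: tcatgtttctaTGACTCAtagatagatag
act-2, V:11078605-11078633, minus strand: aaaggaaaagaTGACTCAacatgacggtc
gex-3, IV:12404382-12404410, plus strand: aatccaatttgTGACTCAtttccccttca
C34C12.8, III:3460272-3460300, plus strand: actggcgcactTGAGTCAtgtgctggcgc
unc-112, V:14696937-14696955, minus strand: cggtgttgctgTGAGTCAg
lec-6, III:600686-600714, minus strand: atcgtatttgaTGACTCAtaggcaagaat
cpi-2, V:6044018-6044046, plus strand: tccgcctctcaTGAGTCAcaacaacgaga
istr-1, V:12697734-12697762, plus strand: ttgtttatctgTGACTCAttgtaatttct

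The repeat GAGAGAG lay within 50 bp of 76 summits. The longest unbroken repeats on chromosomes II to V are printed with the repeat in capitals. They reach 63 bases at Y24D9A.6, where the summit lies in an intron, 16 at taf-12, which encodes a subunit of the general transcription factor TFIID, and 14 at the other 4.
Y24D9A.6, IV:4401087-4401161, minus strand: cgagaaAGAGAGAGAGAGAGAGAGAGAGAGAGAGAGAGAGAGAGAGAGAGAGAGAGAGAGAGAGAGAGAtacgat
taf-12, III:11870151-11870178, minus strand: actagtGAGAGAGAGAGAGAGAtagttg
unc-76, V:15071422-15071447, plus strand: tctaatTCTCTCTCTCTCTCattcac
Y54G11A.2, II:14251594-14251617, plus strand: ggcattAGAGAGAGAGAGAGtgag
W02B3.3, III:668460-668485, minus strand: gagaggGAGAGAGAGAGAGAtggaga
Y24D9A.7, IV:4406103-4406127, minus strand: acaaatAGAGAGAGAGAGAGtggga

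The peaks were spread over all 5 autosomes, with 131 on chromosome I, 128 on II, 123 on III, 112 on IV and 113 on V. Per 100 protein-coding genes this came to 4.55, 3.71, 4.66, 3.41 and 2.26. The genes whose window held the summit were on the plus strand at 327 peaks and on the minus strand at 280. At 581 peaks 1 gene had the summit in its window, and at 26 peaks 2 genes on the same strand did. In all 623 of the 17242 autosomal protein-coding genes, or 3.61%, had at least 1 such summit, and 10 of them had more than 1.

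Counted over protein-coding genes alone, most summits (514) lay between genes. Another 46 lay in introns, 31 in 5′ untranslated regions, 11 in 3′ untranslated regions, 4 in coding exons and 1 in another exon. The next protein-coding gene upstream ran in the same direction at 374 peaks and in the opposite direction at 233. With windows of 2000 bp upstream, 93 of the 607 summits would have fallen in windows of both strands. The rule's edges are not breaks in the data. Just inside the upstream edge lay the summits at pas-5, a proteasome subunit (1000 bp upstream, signal 85.7), and hint-3 (994 bp, 62.4), and just outside it those near bud-31 (1007 bp, 57.0) and dhs-8 (1012 bp, 93.2). At the downstream edge, ech-1.2 (184 bp inside the gene, 60.3) and syx-18 (173 bp, 43.2) were kept, and hrpk-1 (215 bp, 105) and Y43B11AR.3 (228 bp, 59.5) were not.

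Peak strength is given as the authors' signal value, which has no stated unit or scaling. In the tests it is used only to order peaks within a list. Values from different lists are also printed side by side, and 1 correlation of log2 signals is given, without a known common scale. The median signal of the one-directional peaks in the peak list was 63.1, with quartiles of 50.6 and 88.95 and a range of 42.5 to 493. The divergent peaks had a median of 68.7, and the other autosomal peaks one of 60.8. Of the one-directional peaks 49.8% were above the median of all autosomal peaks (63.3), against 56.9% of the divergent ones (odds ratio 0.750, 95% interval 0.571 to 0.984, two-sided Fisher's exact test, p = 0.0326). By the same exact test the difference was lost without peaks at ribosomal protein genes (49.8% against 54.3%, p = 0.210) and with promoter windows of 500 bp upstream and 100 bp downstream (51.4% against 56.8%, p = 0.174). Here and below the tests treat peaks as independent, and where neighbouring or repeated sequences are shared the p-values may be too small.

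The strongest one-directional peak lay 172 bp upstream of cdc-48.1 (WBGene00007352; II:10563458-10563685), which encodes an AAA-type ATPase that extracts ubiquitylated proteins from complexes and membranes. Its signal was 493 in the peak list, 311 in replicate 1 and 179 in replicate 2, and it ranked 4 and 6 in the replicate lists. The peak 86 bp upstream of jun-1 (WBGene00012005; II:9112892-9113224), the Jun-family partner of FOS-1, had a signal of 378, with 262 in replicate 1 and 123 in replicate 2. Both peaks were thus near the top of each replicate list on its own, jun-1 at ranks 10 and 21.

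The next 5 peaks by signal lay at tag-325, rpl-3, cox-5A, rpl-35 and egg-5. The signal at tag-325 was 228 in replicate 1 and 149 in replicate 2, with the summit 597 bp upstream. At rpl-3 and rpl-35, which encode proteins of the large ribosomal subunit, replicate 1 had 219 and 218 and replicate 2 had 158 and 102. For cox-5A, a subunit of cytochrome c oxidase, the values were 219 and 129. All of these stood among the first 42 entries of both replicate lists.

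The remaining peaks of the 12 strongest were at vps-60, an ESCRT-III-related sorting factor (signal 293), H41C03.3 (281), K12H4.5 (279), sec-61.G, the gamma subunit of the protein channel of the endoplasmic reticulum (257), and his-37, a histone H4 gene (241). The egg-5 peak (303) lay 606 bp upstream of that gene, and the H41C03.3 peak 935 bp upstream. Both were much nearer to a noncoding gene, at 11 bp from the 5′ end of sls-2.4 and 23 bp from that of sls-2.1. The sls-2 genes encode the SL2 spliced leader RNA, which is joined to messages from downstream genes of operons. The peak at W06D4.3 (signal 114.8), lay 45 bp from the 5′ end of sls-2.7.

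**Figure D1:**
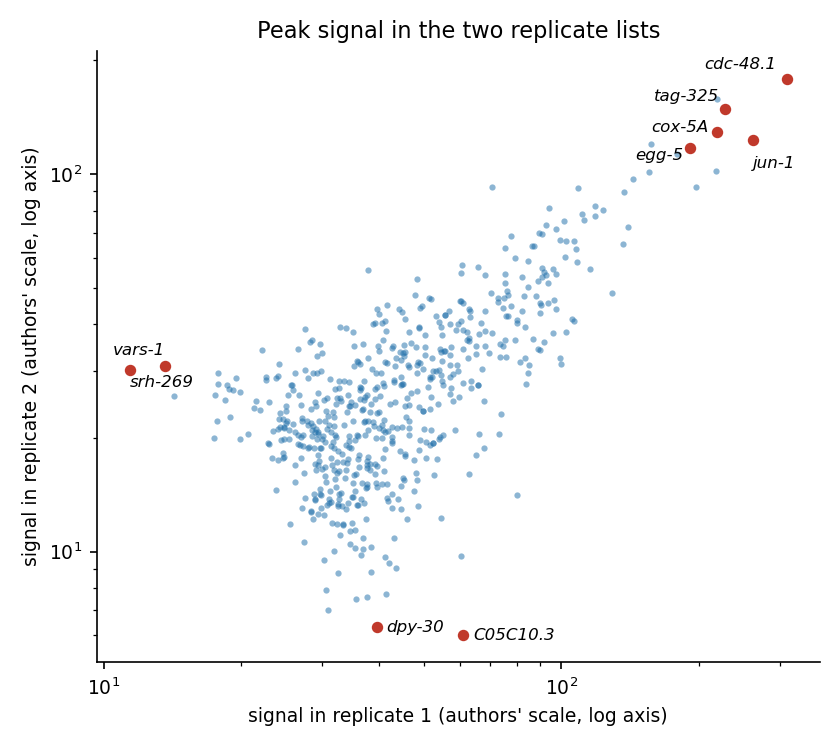
Signal of the one-directional promoter peaks in replicate 1 (x axis) and replicate 2 (y axis), both in the authors' unit on log axes; each point is 1 of the 602 peaks listed in both replicates, and red points are named genes. The strongest peaks, such as cdc-48.1 and jun-1, are high in both replicates, while C05C10.3 and dpy-30 are low in replicate 2 and vars-1 and srh-269 are low in replicate 1.

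Nearly all of the peaks overlapped an entry in each replicate list, with wide scatter in strength among the weaker ones. The peaks were kept by the irreproducible discovery rate procedure, which selects for likeness between lists. Which lists it compared is not stated here, and a comparison of the replicates would favour such overlap. The replicate lists hold 29801 and 23483 entries, so the overlap can be with a very weak entry. Replicate 1 had an overlapping entry (by 1 bp or more) for 606 of the 607 peaks and replicate 2 for 603. The median signal was 40.02 in replicate 1 (range 11.4 to 311) and 25.02 in replicate 2 (range 6.02 to 179). Taking only the top 1895 entries of each replicate list, as many as there are peaks in all, 410 of the one-directional peaks were in both, 117 in replicate 1 only, 72 in replicate 2 only and 8 in neither. As the plot of replicate signals shows, the values in the replicates were related (Spearman's rho 0.590, Pearson's r of log2 signal 0.673, over the 602 peaks). These coefficients describe peaks of the same libraries, possibly selected for likeness between the replicates, and carry no test.

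The share in the top entries of both replicates was 67.5%, against 71.8% of divergent peaks, a difference that did not pass the test (odds ratio 0.816, 95% interval 0.605 to 1.10, two-sided Fisher's exact test, p = 0.170). Some single peaks rested mainly on 1 replicate. The peak at C05C10.3 had a signal of 61.1 and rank 412 in replicate 1, but 6.02 and rank 22152 in replicate 2. At dpy-30, a subunit of histone methyltransferase complexes, the ranks were 995 and 20306. In the other direction, the peak at the chemoreceptor gene srh-269 ranked 10198 in replicate 1 and 651 in replicate 2, and that at the valyl-tRNA synthetase gene vars-1 ranked 6935 and 618. The peaks at yju-2, rgef-1, sys-1, a beta-catenin, and the weaker of 2 at cbp-1, a CBP/p300 acetyltransferase (44.8), had no entry in replicate 2, and that at F54D10.5 none in replicate 1. The stronger cbp-1 peak (137) was listed in both, with 89.1 in replicate 1 and 52.0 in replicate 2.

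Summits lay mostly upstream of the annotated 5′ end, where the rule also places most of its window. The median position was 247 bp upstream (a value of -247 relative to the 5′ end), the quartiles were -426.5 and -135 bp, and 573 of 607 (94.4%) were upstream, against 84.3% of the lower-signal entries described below. Of the summits 36.6% lay from the 5′ end to 200 bp upstream, 30.3% from 201 to 400 bp, 11.4% from 401 to 600 bp, 10.2% from 601 to 800 bp and 6.26% farther out, with 5.27% downstream. For comparison the same placement was given to the lower-ranked part of the pooled list, below its median signal. The deposit labels that list as peaks and background, and this part holds entries far below the peak threshold. The placement left 1831 autosomal entries at one-directional promoters. Of those, 22.7% lay within 200 bp upstream (odds ratio 1.97, 95% interval 1.605 to 2.41, two-sided Fisher's exact test, p = 4.36e-11). The top entries of replicate 1 alone gave 35.6%, and those of replicate 2 alone gave 37.9%. With windows of 500 bp upstream and 100 bp downstream the shares were closer, at 46.6% and 40.5% (Fisher's exact test, p = 0.0182). Both sets were chosen by position in the same window, so the comparison describes only where they lie within its edges. It sets peaks against entries that may be background.

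Divergent summits lay closer to a gene, at a median of -141 bp, with 62.3% within 200 bp upstream of the nearer 5′ end. No test was made, since these summits take the nearer of at least 2 genes. In the distance plot the one-directional summits peak between 100 and 150 bp upstream and extend to -1000 bp, while no divergent summit lay beyond -733 bp. A divergent summit must lie in the windows of both genes, so the rule bears on this difference.

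**Figure D2:**
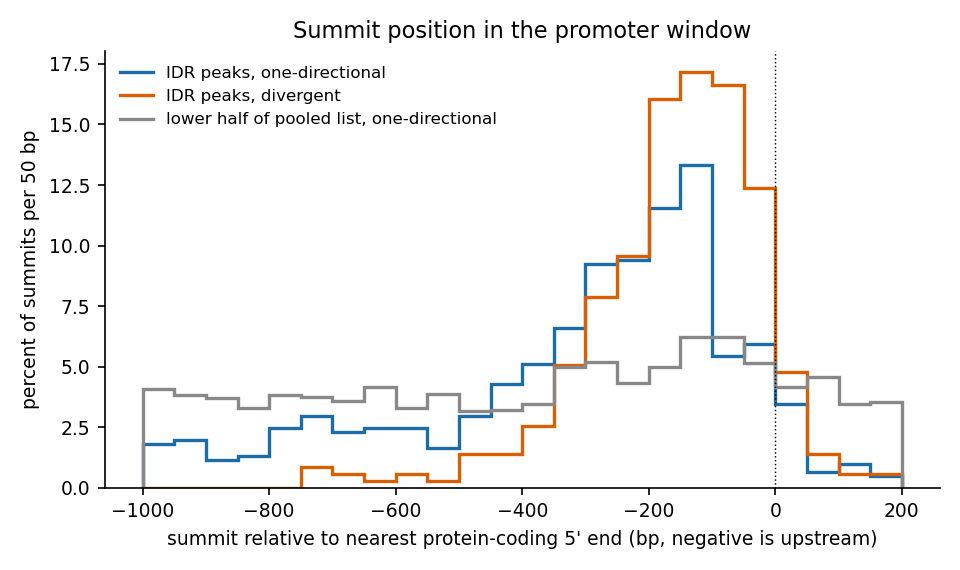
Percent of summits (y axis) in steps of 50 bp along the promoter window (x axis, bp, negative upstream). Distances are from the nearest protein-coding 5′ end among genes whose window held the summit. Shown are 607 one-directional peaks, 355 divergent peaks and 1831 entries of the lower-ranked part of the pooled list, below its median signal. The one-directional peaks are concentrated upstream of the 5′ end, with a median at -247 bp, while the lower-signal entries are spread more evenly.

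Among 7 sequence motifs, the GA repeat and the AP-1 site were more frequent at the summits than in the flank of the same peak, and the GATA and TATA motifs were less frequent. Each was searched on both strands in the 101 bases around the summit and in 101 bases centred 400 bp farther upstream, and paired counts were compared by an exact two-sided McNemar test with Benjamini-Hochberg adjustment over the 7. GAGAGAG was present at 76 of 607 summits (12.5%, 95% Clopper-Pearson interval 9.99% to 15.4%) and in 12 flanks (1.98%; exact McNemar test, adjusted p = 2.3e-12). TGACTCA was present at 25 summits (4.12%, interval 2.68% to 6.02%) and in 6 flanks (0.988%; exact McNemar test, adjusted p = 0.00158). A scrambled version with the same base composition, TCACTGA, was found at 6 summits and in 8 flanks (exact McNemar test, adjusted p = 0.791).

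The GC box GGGCGG, a site of Sp/KLF-type zinc finger proteins, was found at 30 summits and in 12 flanks (exact McNemar test, adjusted p = 0.00900), a difference lost in the higher-signal part of the peak list (17 against 7, exact McNemar test, adjusted p = 0.0735). The E-box CACGTG, a site of basic helix-loop-helix proteins, was found at 19 and 11 (exact McNemar test, adjusted p = 0.216). TGATAA, the core site of GATA factors, was found at 29 summits against 59 flanks (exact McNemar test, adjusted p = 0.00158), and TATAAA, the TATA box, at 31 against 72 (exact McNemar test, adjusted p = 1.33e-04). Both of the last are AT-rich, and the flanks have a lower GC content than the summits, as given below; the part of base composition in these counts was not tested beyond the scrambled AP-1 site. Against the flank 400 bp downstream TATAAA no longer passed (31 against 47, exact McNemar test, adjusted p = 0.101).

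Shares were also taken in each replicate's top entries alone, over 587 one-directional entries in replicate 1 and 594 in replicate 2. GAGAGAG was at 12.8% ± 0.492 (SD, n = 2), TGACTCA at 3.64% ± 0.629, GGGCGG at 4.99% ± 0.557, TGATAA at 5.17% ± 0.403 and TATAAA at 6.02% ± 1.85, with 7.33% in replicate 1 and 4.71% in replicate 2. The scrambled site was at 1.53% in replicate 1 and 0.842% in replicate 2. In replicate 1 alone the difference for TGATAA missed the threshold (exact McNemar test, adjusted p = 0.0579). For scale, 1.89% of all 17242 autosomal promoters held GAGAGAG in a window of the same length placed at the median summit position, and 1.13% held TGACTCA. Among the lower-signal entries these shares were 4.21% and 1.15%.

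**Figure D3:**
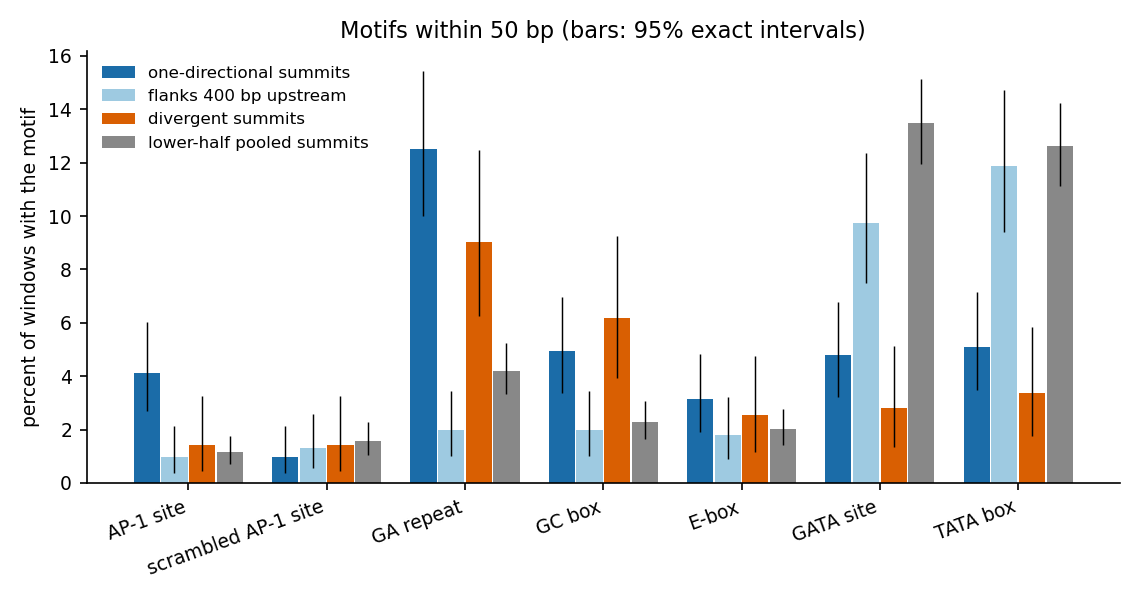
Percent of windows of 101 bp holding each of 7 motifs on either strand (y axis) at 607 one-directional summits, in their flanks 400 bp upstream, at 355 divergent summits and at 1831 lower-signal entries; bars start at 0 and lines are 95% exact binomial intervals. The GA repeat reaches 12.5% at one-directional summits against 1.98% in the flanks, and the GATA and TATA motifs are lower at the summits than in the flanks.

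None of the 7 comparisons with divergent summits passed the test after adjustment (two-sided Fisher's exact test, Benjamini-Hochberg over 7). The nearest was the AP-1 site, at 4.12% of one-directional and 1.41% of divergent summits (25 of 607 and 5 of 355, odds ratio 3.00, 95% interval 1.12 to 10.1, Fisher's exact test, p = 0.0204, adjusted p = 0.143). This call depended on the setting. It passed with windows of 500 bp upstream and 100 bp downstream (3.93% against 0.389%, adjusted p = 0.0175 by Fisher's exact test), with motifs counted within 100 bp (6.92% against 2.54%, adjusted p = 0.00958) and with replicate 1 alone (4.09% against 0.885%, adjusted p = 0.0285), but not with replicate 2 alone (adjusted p = 0.180), in the higher-signal part of the peak list (3.65% against 1.49%, adjusted p = 0.598) or without ribosomal protein genes (adjusted p = 0.227). For GAGAGAG the shares were 12.5% and 9.01% (odds ratio 1.44, 95% interval 0.920 to 2.31), and this comparison passed when motifs were counted within 100 bp (19.6% against 11.8%, Fisher's exact test, adjusted p = 0.00958) but in none of the other 5 settings tried.

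AP-1 sites were found at peaks of all strengths. None of the 12 strongest held one. With the site at 4.12% of all one-directional peaks, 12 peaks are too few to show a lack. Signals of the 25 peaks with the site ran from 42.5 to 194, with a median of 61.9 against 63.4 for the peaks without it. Ordered by signal in 4 groups of about 152 peaks, the site was found at 8, 3, 6 and 8 peaks, from the strongest group to the weakest. The 2 highest were M04F3.4 (signal 194; 118.6 in replicate 1 and 82.5 in replicate 2) and Y18D10A.4 (146; 93.4 and 51.5), where the summit lies in a coding exon.

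The nuclear hormone receptor gene nhr-50 had 144 in the peak list, with 97.4 in replicate 1 and 44.0 in replicate 2, and act-2, an actin gene, had 141, with 103 and 38.1. The others of the first 8 were did-2, which acts with ESCRT-III (133), uri-1, of the prefoldin-like family (116), gex-3, a subunit of the WAVE actin regulator complex (97.5), and C34C12.8 (96.6). Among the sites printed above are also those at unc-112, the worm kindlin (88.8), and lec-6, a galectin (86.8). The site lay within 20 bp of the summit at 12 of the 25 peaks, with a median distance of 21 bp.

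GA repeats showed a tilt in direction but not in side. Of the 74 summits with GAGAGAG on only 1 strand, 26 read GAGAGAG and 48 read CTCTCTC on the strand of the gene (two-sided exact binomial test, adjusted p = 0.0282 over 4 motifs). The GC box read GGGCGG at 7 and its reverse complement at 23 (two-sided exact binomial test, adjusted p = 0.0209). Among the promoters of all autosomal genes that held the motif on 1 strand, GAGAGAG was on the gene strand at 38.2% and GGGCGG at 41.3%, and among such lower-signal entries at 24.7% and 34.2%. In the upstream flanks of these peaks GAGAGAG read in the direction of the gene at 2 and against it at 10, and GGGCGG at 9 and 3. The direction at the summits was not tested against any of these sets. The tilt of the GA repeat did not pass in replicate 1 alone (37.1%, exact binomial test, adjusted p = 0.0828) or in the higher-signal part of the peak list (39.5%, adjusted p = 0.512), where that of the GC box was also lost (3 against 14, exact binomial test, adjusted p = 0.0509).

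TGATAA (10 against 18) and TATAAA (15 against 13) had no tilt that passed the exact binomial test (adjusted p = 0.247 and 0.851). The centre of the nearest GA repeat was upstream of the summit at 40 peaks and downstream at 35 (exact binomial test, p = 0.644), and within 20 bp at 42. Peaks with the repeat had a median signal of 66.7, and those without it 62.9. The strongest of them was at K12H4.5 (279), with a repeat of 10 bases.

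Summits were richer in G and C than their surroundings. Mean GC content was 45.2% ± 7.64 (SD over 607 windows) at the summits, 35.1% ± 8.24 in the flanks 400 bp upstream and 37.4% ± 8.79 in those 400 bp downstream. It was higher at the summit than in the upstream flank at 493 peaks and lower at 102. Divergent summits had 46.2% ± 7.04, and lower-signal entries 34.4% ± 7.79. In the profile the one-directional summits rise to a single narrow maximum, without the dip below 30% that divergent summits show between 100 and 160 bp upstream, and the lower-signal entries stay flat.

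**Figure D4:**
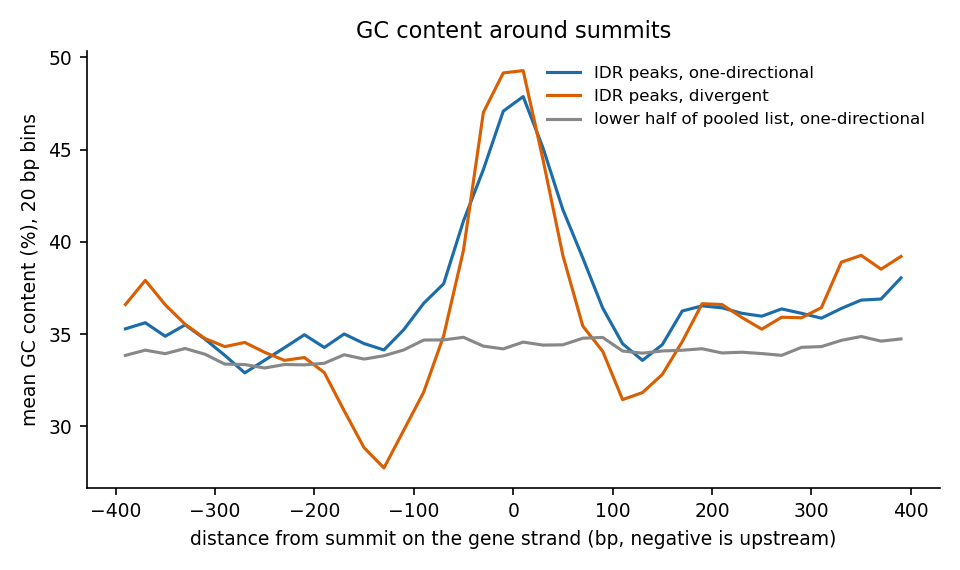
Mean GC content in bins of 20 bp (y axis, percent) against distance from the summit on the strand of the gene (x axis, bp, negative upstream) for 607 one-directional peaks, 355 divergent peaks and 1831 lower-signal entries. GC content is highest at the summit in both peak sets, and the lower-signal entries show no maximum.

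Words of 7 letters were then counted to see which others were common under these summits. The 8 below were chosen from the same windows for their excess over the flanks, so their counts are a description with no test. GAGACGC and, on the other strand, CTGCGTC are pieces of 1 longer word, GAGACGCAG, which was present at 67 summits (11.04%) and in 5 upstream flanks. It was at 7.32% of divergent summits, 1.37% of lower-signal entries and 0.783% of the promoters of all autosomal genes. The top entries of replicate 1 held it at 10.7% and those of replicate 2 at 10.9%. It is printed in context, in capitals, at 7 of the strongest peaks on chromosomes II to V that have it on either strand.
vps-60, V:8606411-8606441, minus strand: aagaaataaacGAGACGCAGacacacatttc
sec-61.G, V:10897342-10897372, minus strand: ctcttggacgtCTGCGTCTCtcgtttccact
ntl-11, IV:15471602-15471632, minus strand: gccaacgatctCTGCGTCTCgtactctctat
Y39B6A.43, V:18967842-18967872, minus strand: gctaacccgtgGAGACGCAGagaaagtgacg
Y73F8A.27, IV:15472572-15472602, plus strand: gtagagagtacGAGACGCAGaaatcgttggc
sec-24.1, IV:11566358-11566388, minus strand: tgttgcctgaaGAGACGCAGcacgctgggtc
tbc-14, II:13447849-13447879, minus strand: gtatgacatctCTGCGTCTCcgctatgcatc

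Among these genes, besides vps-60 and sec-61.G, sec-24.1 encodes a COPII coat protein and ntl-11 a factor of the CCR4-NOT deadenylase complex. Their signals were 109 at sec-24.1 and 188 at ntl-11. The word read CTGCGTCTC on the gene strand at 41 peaks and GAGACGCAG at 26. GAGAGAG was also present at 31 of the 143 peaks with a word of this family, beside 76 of all 607, with no test. The family as counted includes GAGAGAC, which differs from the GA repeat only in its last base. The same run of bases can hold both, so part of this overlap may come from shared letters. How large that part is was not tested.

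A different word, CTGGCGC, was present at 41 summits (6.75%), in 2 upstream flanks and in none of the downstream ones, at 9.86% of divergent summits and at 0.626% of all promoters. It was found at 21 of the 152 strongest peaks and at 6, 9 and 5 of the 3 following groups. The 5 sites printed here show the word, in capitals, at peaks on chromosomes II to V.
eelo-2, IV:17249882-17249910, plus strand: tctcgcgatgtGCGCCAGcagctgtctgc
ddp-1, III:1859730-1859758, plus strand: aggagaggttgCTGGCGCatttctcttgt
dnj-9, II:4851812-4851840, plus strand: aaggggttatgCTGGCGCtttttcagtgc
mrck-1, V:6267594-6267622, minus strand: catcacaaagtGCGCCAGttaatcaaatc
pcn-1, IV:4049674-4049702, minus strand: aaggacgactgCTGGCGCactttttgaat

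The signals at these sites were 223 at eelo-2, 148 at ddp-1, whose human relative is a mitochondrial import factor, 139 at dnj-9, a J-domain co-chaperone, 135 at the kinase gene mrck-1 and 125.7 at pcn-1, which encodes the replication clamp PCNA. In the AP-1 set, the C34C12.8 window printed above also holds CTGGCGC, on both sides of the AP-1 site. The other words were AGAGACG at 84 summits and GAGAGAC at 65, both counted in the GAGACGCAG family, AACGCGC at 48, CGCAGAC at 43 and AGTGCGC at 40. In 317 of the 607 windows, none of AP-1, GAGAGAG or the 8 words was found.

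Some peaks had longer runs of sequence in common. Of the 607 windows 42 shared at least 20 bases with another. The longest run, 72 bases, was between Y62F5A.12 and C26B2.7 on different chromosomes, and eel-1 shared 67 bases with the first and 50 with the second. The windows near sls-2.4 and sls-2.1 shared 30 bases. Those at pas-5 and fbxa-83 shared 42, and the other pairs 20 to 27 bases. The strong peaks at rpl-3 (374) and cox-5A (349), on the same chromosome but 9037602 bp apart, shared 21 bases that read, on the strand of rpl-3 and in reverse complement on that of cox-5A, as follows.
rpl-3, III:3867566-3867586, plus strand: CTACGGTAAAAGCGTGTTTTG

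At ntl-11 and Y73F8A.27, which point away from each other, the 2 summits lay 990 bp apart and shared 20 bases around the word printed above. The ribosomal protein genes rpl-32 and rpl-13 shared 23 bases, and tba-2, an alpha tubulin, and icd-2 shared 27. Reads from identical stretches cannot be assigned to one place by sequence alone, and how such reads were handled is not given in the sources used here. More than 50% of the window was marked as repeat in the reference sequence (soft-masked) at 64 summits (10.5%), against 14.9% of divergent summits and 26.98% of lower-signal entries.

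At 100 of the 607 peaks (16.5%) the summit was nearer to the 5′ end of a noncoding gene than to that of the protein-coding gene named. That protein-coding gene is then not the closest annotated start. Protein-coding genes whose window did not hold the summit were not compared, and piRNA genes were left out. Of the 100 nearer genes 62 were listed as ncRNA, 17 as snoRNA, 9 as snRNA, 5 as tRNA, 4 as lincRNA, 2 as pseudogenes and 1 as miRNA. The share was 13.5% at divergent peaks and 6.72% among lower-signal entries. Within 100 bp of a snoRNA 5′ end there were 15 summits (2.47%), against 3 (0.845%) of the divergent and 2 (0.109%) of the lower-signal ones. Within 100 bp of the 5′ end of a gene listed as ncRNA the order was the other way, with 40 one-directional summits (6.59%) and 39 divergent ones (10.99%), beside 30 lower-signal entries (1.64%). These counts were added after the data were seen and have no test.

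Examples of strong peaks of this kind, besides the SL2 genes, are those at cmtr-1, a cap methyltransferase gene (signal 170), which lay 69 bp from a snoRNA 5′ end, and snr-4, which encodes an Sm protein of the spliceosome (155), 36 bp from an snRNA 5′ end. The peak assigned to the glutathione transferase gene gst-27 (111) lay 352 bp upstream of it and 55 bp from a snoRNA 5′ end. At eif-2Bgamma (75.6) the summit was in an intron 914 bp upstream of the 5′ end taken for that gene and 4 bp from sup-39, listed as snRNA.

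By gene list, the share of genes with a one-directional summit ran from 35.7% for CDC-48 and its cofactors to 0 for neuropeptide and insulin genes, small GTPases and 4 of the tissue marker lists given below. The lists were gene-name families chosen with earlier results of these data known, and the counts are given beside the 3.61% over all autosomal genes with no test. Cytosolic ribosomal protein genes had a summit at 21 of 80 (26.2%, interval 17.04% to 37.3%), and 25.6% ± 0.884 (SD, n = 2) in the top entries of each replicate alone. A divergent peak was found at 41 of the 80, beside 731 of the 17242 autosomal genes, with no test. All 21 peaks lay upstream, at 160 to 454 bp with a median of 300 bp, 2 of them within 200 bp, and 17 had a signal above the median of the one-directional peaks.

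CDC-48 and its cofactors had a summit at 5 of 14 genes (35.7%, interval 12.8% to 64.9%). None of the 14 had a divergent peak, beside 731 of the 17242 autosomal genes, with no test. Apart from that at cdc-48.1, the one-directional peaks of this list were much weaker. The signal at ufd-3, a ubiquitin-binding cofactor, was 85.9, with 39.5 in replicate 1 and 43.8 in replicate 2. Values of 66.2, 56.3 and 47.5 were found at ubxn-2, ubxn-3 and ufd-2. Proteasome subunit genes had summits at 5 of 33 (pas-5, rpn-13, rpt-1, rpt-3 and rpn-11), with signals of 50.9 to 85.7, and ubiquitin conjugation genes at 6 of 53, led by ubc-25 (87.1) and ubc-3 (84.6).

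Genes for bZIP proteins, the family of FOS-1 itself, had a summit at 5 of 25 (20%, interval 6.83% to 40.7%). After jun-1 the strongest was xbp-1, the transcription factor of the unfolded protein response, with 170 in the peak list, 103 in replicate 1 and 66.3 in replicate 2 and the summit 26 bp upstream. The other 3 were cebp-2 (65.3), crh-1, the worm CREB (59.2), and zip-11 (42.9). In the top entries of each replicate alone the share was 14.0% ± 2.83 (SD, n = 2). Nuclear hormone receptor genes, at 9 of 246 (3.66%), were close to the share over all genes.

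Respiratory chain and ATP synthase genes had a summit at 6 of 36, with cox-5A (349), cox-5B (167) and cyc-1, cytochrome c1 (120), the strongest. Nuclear pore and transport genes had 6 of 40, led by the importins imb-3 (138) and ima-2 (98.0) and the nucleoporin gene npp-8 (79.7). Vesicle coat and sorting genes had 8 of 61, with vps-4, the ATPase of ESCRT-III (132), next after vps-60 and sec-61.G. The list was drawn up by gene name, and sec-61.G, a channel subunit, is neither a coat nor a sorting protein. Chaperone genes had 5 of 60, led by hsp-1, an Hsp70 (178), dnj-9 (139) and pfd-6, a prefoldin subunit (101). Mitochondrial ribosomal protein genes had 7 of 70, splicing factors 4 of 37, translation factors 4 of 37 and tRNA synthetases 2 of 31.

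At the other end, chemoreceptor genes had a summit at 2 of 1286 (0.156%, interval 0.0188% to 0.561%), sre-23 (53.9) and srh-269 (46.2), both near the lower end of the signal range. Innate immunity effectors had 1 of 288, clec-126 (65.6), where the summit was 60 bp from a tRNA 5′ end. Neuropeptide and insulin genes had 0 of 106 (interval up to 3.42%) and small GTPase genes 0 of 36 (up to 9.74%). A divergent peak was found at 7 of the 36 small GTPase genes, beside 731 of the 17242 autosomal genes, with no test. Core histone genes had a one-directional summit at 1 of 68, his-37 (interval 0.0372% to 7.92%). F-box genes had 2 of 305 (0.0795% to 2.35%) and cuticle collagens 3 of 146 (0.426% to 5.89%). The intervals for core histones, cuticle collagens and small GTPases include the 3.61% over all autosomal genes.

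How much of a promoter can hold a one-directional summit differs between the lists, since part of many windows is shared with a gene on the other strand. The mean length not shared was 966 bp over all autosomal genes, 603 bp for ribosomal protein genes, 545 bp for proteasome genes, 505 bp for core histones and 1024 bp for chemoreceptors. The tissue marker lists were too short for a comparison. A summit was found at 1 of 9 body wall muscle markers, unc-45 (54.2), at 2 of 12 neuron markers, egl-21 (46.8) and snb-1 (42.8), and at none of the intestine (8), epidermis (8), pharynx (5) and germline (11) markers. Both neuron markers were among the top entries of replicate 1, and neither was among those of replicate 2, where they ranked 6096 and 2987. These small lists allow wide intervals, up to 36.9% for intestine.

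**Figure D5:**
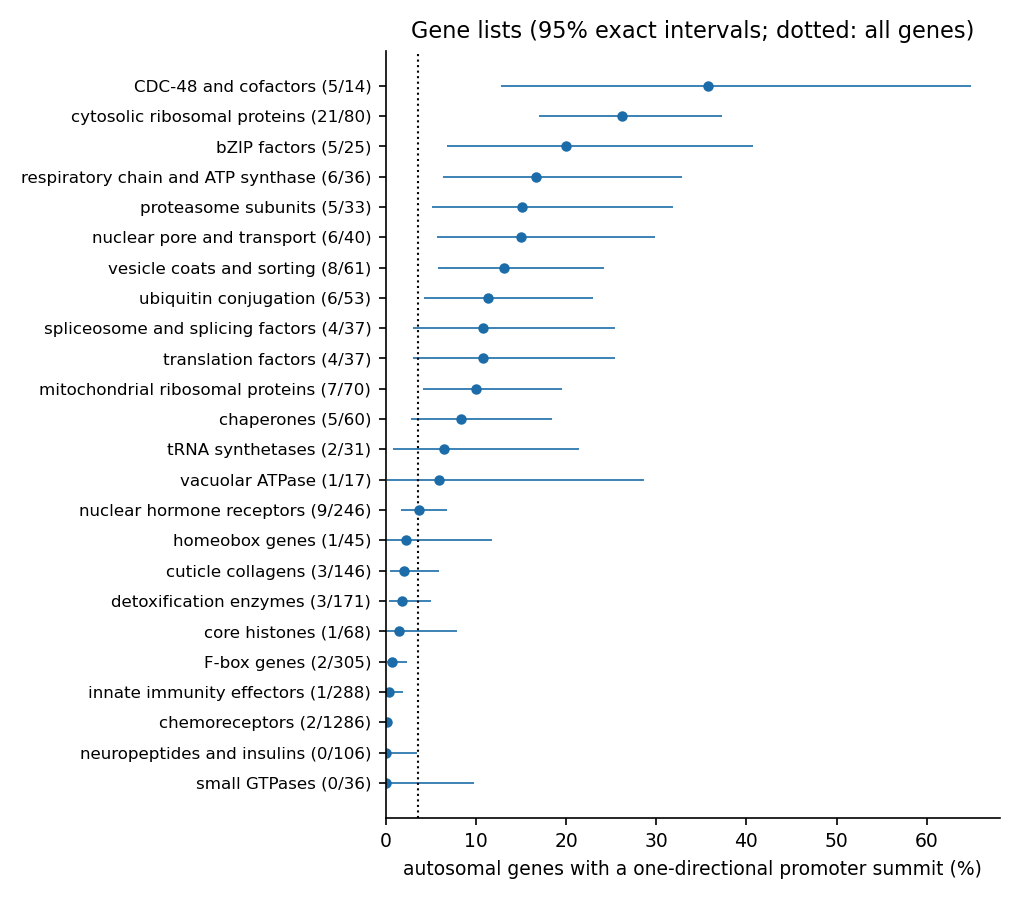
Percent of the genes of each of 24 lists with a one-directional promoter summit (x axis), with 95% exact binomial intervals and the counts beside each name; the dotted line is the 3.61% over all autosomal protein-coding genes. CDC-48 with its cofactors and ribosomal protein genes are at the top, with 35.7% and 26.2%, and chemoreceptors, neuropeptides and small GTPases at the bottom.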

How the data were processed

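ChIP-seq of eGFP-tagged FOS-1 was deposited as lists of regions in narrowPeak form for 2 replicates, their pooled alignments and the peaks kept by the irreproducible discovery rate (IDR) procedure. The signal of each region is the authors' value and its scaling is not given, so the tests used only the order of signals within a list. Pearson's r of log2 signals and values printed from different lists are descriptions without a known common scale. Per the deposited text files, the replicate and pooled lists came from alignments and 1 control file. For the aligner and peak caller no name is given in the sources used here, read depth is unknown, and intervals cover counting error only. The lists in ce11 (29801 entries in replicate 1, 23483 in replicate 2, 20363 pooled, 1895 IDR peaks) were used; those in ce10 were not.

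Genes came from Ensembl release 115 (WBcel235) and sequence from the RefSeq copy of that assembly. Largest region ends lay within the reference chromosome lengths. Motifs were searched on both strands with Python 3.11.15 and SciPy 1.17.1. Flanks were compared by exact McNemar tests, peak classes by Fisher's exact tests and directions by exact binomial tests, with Benjamini-Hochberg adjustment within each family and a threshold of 0.05. Named genes were the 12 peaks of highest signal, the 8 highest with an AP-1 site, the 6 longest GA repeats, the 3 largest rank differences each way, up to 3 per gene list, and 2 to each side of each window edge. Others were chosen after their values were seen: peaks named for a word, a shared run, a noncoding neighbour, a missing replicate entry, or to complete a list of 5. Where a named member lay on chromosome I its sequence is not printed and the next in order is. One peak among those named for a word is not reported here. Members, lists and tests were chosen with earlier results of these data known.

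Placement, motif finding, adjustment and the tests were tried on simulated data. In the first simulated set a motif that had not been planted passed the McNemar test. The number of sets, and the number of such passes tolerated, were raised after that, and the passes then came at about the nominal rate. That check is therefore weak evidence on false positives.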

Additional observations from a re-analysis of the deposited data

How the results depend on the processing

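Of 145 values recomputed under alternatives, 122 did not turn direction and stayed on the same side of the threshold. They include ties, which have no direction, and counts of genes with a summit, which were judged by size alone. No paired analysis was possible because the 2 replicates form a single group. With the top entries of 1 replicate alone, shares ranged from 0.842% to 1.53% for TCACTGA, 4.88% to 5.45% for TGATAA, 3.20% to 4.09% for TGACTCA, 4.71% to 7.33% for TATAAA and 4.60% to 5.39% for GGGCGG, and GAGAGAG on the gene strand from 30.7% to 37.1%. In these, TGATAA against flanks and the GAGAGAG direction were lost with replicate 1 alone, TGACTCA and TATAAA against divergent peaks passed there, and the sign turned for TCACTGA (replicate 1) and, against divergent peaks, GGGCGG and TATAAA (replicate 2), none of which had passed. Windows of 500 and 100 bp gave 3.93% for TGACTCA (now passing against divergent peaks), 2.68% for CACGTG (sign turned) and 51.4% for the share above median signal (lost). Without ribosomal protein genes the last was 49.8% (lost). The higher-signal part of the peak list gave 5.65% for GGGCGG (lost against flanks, sign turned against divergent peaks), 1.99% for CACGTG (sign turned), 39.5% and 17.6% for GAGAGAG and GGGCGG on the gene strand (both lost), and 96.3% in the top entries of both replicates (sign turned). Motifs within 100 bp gave 2.47% for TCACTGA (sign turned against both flanks and divergent peaks), 6.92% for TGACTCA and 19.6% for GAGAGAG (both now passing against divergent peaks). The downstream flank left TATAAA at 5.11% (lost). The higher-signal part of the peak list has fewer peaks. The cause of these changes was not tested in any setting. With 2 replicates and no read counts, the depth behind single peaks cannot be judged.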
